A study of Mus musculus with 34 samples.

Results

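The 45 genes described here are interferon-induced genes, out of 48526 genes counted in 34 RNA sequencing libraries of mouse splenic T cells. They were chosen by gene symbol, with earlier results of these data known. They comprise 8 guanylate-binding proteins (GBPs; Gbp2 to Gbp9), 4 immunity-related GTPases (IRGs; Irgm1, Irgm2, Igtp and Iigp1), 16 antiviral effectors, 4 sensors of foreign nucleic acid (Ifih1, Ddx58, Dhx58 and Zbp1), 4 transcription factors (Stat2, Irf1, Irf7 and Irf9), a set of 4 made of Parp9, Parp14, Dtx3l and Trim30a, and 5 antigen presentation genes (Tap1, Tap2, Tapbp, B2m and Nlrc5). All 45 passed the filter on low counts and none was at 0 in any library. Pan T cells of C57BL/6 mice aged 6 to 12 weeks were purified by negative selection, and all groups but 1 were stimulated with antibodies to CD3 and CD28 together with recombinant IL-2 and harvested after 24 h or 72 h. The 13 groups were unstimulated wild type (WT, 2 libraries) and, at each of the 2 times, 2 libraries of WT and of CD28 KO and 3 each of Ars2 KO, CD28 Y170F, CD28 AYAA and DKI. CD28 is the main costimulatory receptor of T cells, and the AYAA and Y170F mutants carry substitutions in its signalling tail, Y170F at the tyrosine that recruits phosphoinositide 3-kinase and AYAA at the distal proline-rich motif. ARS2, encoded by Srrt, is a nuclear cap-binding partner that routes RNA to processing or decay. What DKI stands for, how the deletions were made and in which cells they act are not given in the sources used here, and nothing there says that the libraries of a group come from separate animals, so a p-value covers no more than the variation among these libraries.

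Interferons signal through surface receptors to the JAK kinases and STAT proteins. Interferon gamma, made by activated T cells and natural killer (NK) cells, leads to binding at the gamma-activated sequence (GAS) and induces Irf1, whose product acts on further genes. Type I interferons activate a complex with STAT2 and IRF9 that binds the interferon-stimulated response element (ISRE). GBPs and IRGs attack vacuoles that hold intracellular microbes and respond strongly to interferon gamma, whereas the Ifit, Oas and Mx genes, Isg15 and Rsad2 are known as type I interferon genes, although many genes answer to both.

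The promoters of the members were read from RefSeq (GRCm38.p6), as the 250 bases before to 50 after each transcript start, and 30 of the 45 members had such a window. They are shown because the GBP and IRG genes and the antiviral genes moved apart in the libraries described below. The letters GAAANNGAAA (ISRE) or their complement occurred in 18 of the 30 members and in 3.99% of 27025 genes, and the letters TTCNNNGAA (GAS), which read the same on both strands, in 9 of 30 members and in 9.55% of genes. All 7 GBP and IRG genes with a window held an ISRE, and 4 of them also a GAS. Of the 14 antiviral effectors and sensors with a window, 8 held an ISRE, 4 a GAS and 1 both. In the stretches below, printed 5′ to 3′ on the strand of the gene, capitals mark these matches. A match is a run of letters and not a measured binding site.
Irf1, chr11:53769899-53769957, + strand, a GAS: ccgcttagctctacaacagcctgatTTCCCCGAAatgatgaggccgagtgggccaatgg
Igtp, chr11:58199486-58199555, + strand, a GAS and an ISRE: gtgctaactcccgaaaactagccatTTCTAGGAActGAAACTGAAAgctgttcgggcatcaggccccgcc
Irgm2, chr11:58214877-58214947, + strand, a GAS and an ISRE: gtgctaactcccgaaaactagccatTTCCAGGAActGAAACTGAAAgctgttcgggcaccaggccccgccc
Gbp2, chr3:142620579-142620621, + strand, an ISRE: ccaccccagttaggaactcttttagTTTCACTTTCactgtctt
Isg15, chr4:156200850-156200921, − strand, 3 overlapping ISREs: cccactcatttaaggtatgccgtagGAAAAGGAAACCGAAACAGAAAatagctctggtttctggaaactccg
Ifit3, chr19:34583348-34583441, + strand, 2 ISREs: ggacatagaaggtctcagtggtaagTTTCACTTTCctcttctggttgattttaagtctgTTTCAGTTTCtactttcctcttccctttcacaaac
Ifit1, chr19:34640760-34640838, + strand, 2 ISREs: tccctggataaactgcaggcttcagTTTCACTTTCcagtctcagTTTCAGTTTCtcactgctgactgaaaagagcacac
The Igtp and Irgm2 stretches were identical at 68 of 70 aligned bases. These are neighbouring, overlapping genes, and Gbp4, Gbp8 and Gbp9 overlap each other on chromosome 5, so the values of these 5 depend on how the authors' software shared reads among them.

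Library totals ran from 8.3 M to 47.8 M counts, and 8 libraries lay under 12 M: the 6 DKI libraries and WT number 4 at each time. DKI was therefore also compared with WT number 4 alone, and the other genotypes with WT number 1 alone. Levels are given as CPM, which is counts scaled to a library total of 1000000. Srrt RNA at 24 h was lower in every Ars2 KO library (33.5 to 64.8 CPM) than in WT (131 and 244 CPM). At 72 h the groups overlapped, with 108, 146 and 105 CPM in Ars2 KO and 145 and 245 CPM in WT. At 24 h Cd28 RNA was not lower in the libraries labelled CD28 KO (476 and 482 CPM) than in WT (387 and 411), while at 72 h it was (212 and 214 against 474 and 587). Cd28 RNA was then also below WT in DKI (270 to 304 CPM), AYAA (283 to 323 CPM) and Ars2 KO (231 to 451 CPM). Y170F (468 to 594 CPM) overlapped WT. A count over the whole gene may cover undeleted parts and checks nothing about the deletion. The sum of 11 T cell markers was 2486 to 4009 CPM with no marker at 0 in any group. Single T cell markers differed between groups. At 72 h Cd4 was at 111 and 140 CPM in WT and 40.0 and 46.2 CPM in the libraries labelled CD28 KO. It was 64.8 to 72.3 CPM in DKI, 47.6 to 97.0 in AYAA, 61.6 to 212 in Ars2 KO and 110 to 167 in Y170F. Cd8a was at 487 and 449 CPM in WT, 299 to 488 CPM in Ars2 KO and 492 to 684 CPM in the other genotypes. Their part in the differences below was not tested. By the expression of sex-linked genes, the unstimulated WT libraries were female, the stimulated WT and DKI libraries male and the other genotypes mixed. The unstimulated WT libraries also held more counts (47.8 M and 44.0 M) than the stimulated WT libraries (10.1 M to 26.4 M). Within WT, stimulation therefore cannot be told apart from sex or depth.

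In WT cells stimulated for 24 h, the GBP and IRG genes rose and most antiviral genes fell. Of the 12 GBP and IRG genes 11 rose against unstimulated WT, all but Gbp9, with a median log2 fold change of 1.75, and of the 20 antiviral effectors and sensors 15 fell and 1, Zbp1, rose, with a median of −1.35. The median over all 18292 genes tested was −0.02. In all, 19 members rose and 17 fell at an adjusted p under 0.05 (edgeR's quasi-likelihood test, Benjamini-Hochberg adjustment over all genes tested), where 24.2% of all genes rose and 27.2% fell. With each of the 4 libraries left out in turn, 26 of the 36 calls held, and those of Stat2, Tap1, Irf9, Ifit3, Usp18, Ifit1, Xaf1, Oas3, Ifi44 and Gbp7 did not.

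Gbp2 (ENSMUSG00000028270.12, chromosome 3, 142620602 to 142638008), a GTPase that coats microbial vacuoles, was at 79.6 and 70.7 CPM in the 2 unstimulated WT libraries and at 1072 and 1748 CPM in WT number 1 and number 4 at 24 h. Gbp5 (ENSMUSG00000105504.4, chromosome 3, 142493978 to 142522344), which promotes inflammasome assembly, went from 24.0 and 24.1 CPM to 322 and 404 CPM. The groups lay far apart for both, and the log2 fold changes were 4.23 (SE 0.27, edgeR adjusted p = 2.5e-12) and 3.92 (SE 0.22, adjusted p = 3.3e-13). Igtp (ENSMUSG00000078853.8, chromosome 11, 58199556 to 58207591), an IRG, was at 117 and 125 CPM before and 640 and 768 CPM after stimulation. Iigp1, another IRG, was at 35.2 and 33.2 CPM before and 272 and 444 CPM after. Neither gene's groups overlapped, and both rose, by 2.54 (SE 0.15, adjusted p = 9.3e-13) and 3.39 (SE 0.33, adjusted p = 7.9e-09) on the log2 scale. Gbp4 rose from 227 CPM in both unstimulated libraries to 671 and 912 CPM (log2 fold change 1.80), and Irgm1, which restrains other IRGs, rose by 2.04.

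Among the antiviral genes, Mx1 (ENSMUSG00000000386.14, chromosome 16, 97447035 to 97462907), a GTPase gene, was at 24.7 and 20.7 CPM in unstimulated WT and at 2.2 and 1.2 CPM at 24 h. Rsad2 (ENSMUSG00000020641.15, chromosome 12, 26442746 to 26456452), which makes a chain-terminating nucleotide, went from 11.1 and 15.0 CPM to 0.865 and 1.57 CPM. Both were high in each unstimulated and low in each stimulated library, with log2 fold changes of −3.65 (SE 0.58, edgeR adjusted p = 1.2e-05) and −3.53 (SE 0.79, adjusted p = 0.00059). Ifit3, whose family binds viral RNA, was at 44.2 and 31.2 CPM before and at 13.1 and 18.8 CPM after stimulation. Isg15, a ubiquitin-like modifier, went from 5.10 and 3.69 CPM to 1.15 and 1.47 CPM, and Usp18, the protease that removes it, from 27.3 and 20.7 CPM to 12.0 and 16.0 CPM. These 3 genes fell, by 1.26, 1.78 and 0.79 on the log2 scale. Oas2, which starts RNA decay on sensing double-stranded RNA, fell by 2.86, the exonuclease gene Isg20 by 1.67, and Ddx58, the gene of the RNA sensor RIG-I, by 1.62 (148 and 149 CPM against 44.1 and 52.5 CPM). Oasl2 did not pass (13.5 and 13.2 CPM against 5.98 and 13.5 CPM), as its groups overlapped.

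The transcription factors split in the same comparison. Irf1 rose from 208 and 215 CPM to 309 and 448 CPM (log2 fold change 0.84, SE 0.16, edgeR adjusted p = 9e-05) and Stat2 rose by 0.62. Irf7, the factor that amplifies type I interferon production, fell from 77.7 and 75.6 CPM to 17.1 and 28.0 CPM (log2 fold change −1.78, SE 0.27, adjusted p = 7e-06), while Irf9 fell by 0.74. Zbp1, a sensor of Z-form nucleic acid, rose from 46.3 and 44.7 CPM to 118 and 173 CPM, by 1.67. In the antigen presentation set, Tapbp, Nlrc5 and Tap1 rose, by 0.94, 0.60 and 0.34. Tap1, a peptide transporter subunit, was at 271 CPM in both unstimulated libraries and at 301 and 389 CPM at 24 h, and Nlrc5, the activator of class I genes, at 322 and 313 CPM and then 427 and 537 CPM. B2m, the light chain of class I molecules, did not pass (1342 and 1404 CPM against 1126 and 1272 CPM). Parp14 and Dtx3l rose, by 0.93 and 1.19. Without WT number 4 at 24 h, Irf1 was at 0.55 and still passed, while Stat2 (0.30) and Tap1 (0.16) did not pass.

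Markers of other cells moved with stimulation. The sum of 12 B cell markers was 2459 and 2636 CPM in the unstimulated WT libraries and 203 to 320 CPM in WT at 24 h, and all 12 fell. The sum of 14 myeloid markers was 245 to 264 CPM and then 7.1 to 12 CPM with Cd14 at 0, and that of 9 dendritic and plasmacytoid cell markers 229 to 250 CPM and then 30.7 to 43.4 CPM with Klra17 at 0. In such bulk RNA, fewer cells of a type and less RNA per cell cannot be told apart, and the part of these cells in the fall of the antiviral genes was not tested.

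At 72 h the 2 classes of WT cells no longer lay on opposite sides of the unstimulated level. Against unstimulated WT, 10 of the 12 GBP and IRG genes were higher (median log2 fold change 1.51), while of the 20 antiviral genes and sensors 4 were higher and 3, Oas2, Isg20 and Ifi35, lower (median 0.08). In all 22 members rose and 3 fell, against 23.5% and 27.0% of all genes. The size was 2.82 for Gbp2 (SE 0.25, edgeR adjusted p = 9e-10), 2.51 for Iigp1, 2.04 for Igtp, 1.98 for Gbp3, 1.24 for Gbp4, 1.78 for Zbp1, 1.08 for Tapbp, the chaperone that loads class I molecules, and 0.70 and 0.55 for Tap1 and Nlrc5. Oas2, Isg20 and Ifi35 fell by 1.58, 0.63 and 0.48; with each library left out in turn 22 of the 25 calls held, and of the 3 lower ones that of Ifi35 alone (Oas2 was at −1.06 without WT number 1 at 72 h, and Isg20 at −0.45 without unstimulated WT number 2). B cell markers summed to 645 to 681 CPM in these WT libraries, and 4 of 14 myeloid markers (Adgre1, Csf3r, S100a8 and S100a9) were at 0.

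From 24 h to 72 h in WT, more GBP and IRG genes fell than rose, and more antiviral genes rose than fell. Of the 12 GBP and IRG genes 7 fell and 1, Gbp3, rose (median log2 fold change −0.53), and of the 20 antiviral genes and sensors 13 rose and 1, Ifi35, fell (median 1.27), against a median of −0.03 over all genes. In all 18 members rose and 9 fell, where 15.5% of all genes rose and 14% fell. Gbp5 went from 322 and 404 CPM to 88.4 and 98.2 CPM, and Gbp2 from 1072 and 1748 CPM to 485 and 574 CPM. No library of one time reached those of the other, and the log2 fold changes were −1.96 (SE 0.20, edgeR adjusted p = 8.2e-08) and −1.41 (SE 0.24, adjusted p = 5.7e-05). Irgm1, Iigp1, Gbp4, Igtp and Irf1 fell by 0.94, 0.88, 0.56, 0.50 and 0.51, and Ifi35, an interferon-induced regulator of signalling, fell by 0.49. Oas3, which makes the same RNA-decay signal as Oas2, went from 27.1 and 23.9 CPM to 122 and 153 CPM (log2 fold change 2.42, SE 0.25, adjusted p = 6.1e-08). Rsad2 went from 0.865 and 1.57 CPM to 18.2 and 28.9 CPM, and Mx1 from 2.2 and 1.2 CPM to 13.7 and 18.1 CPM. Each of the 3 was higher in both 72 h libraries, with log2 fold changes of 4.37 (adjusted p = 0.00016) and 3.12 (adjusted p = 0.0002) for Rsad2 and Mx1. Isg15, Dhx58, Ddx58, Irf7, Ifit3 and Tap1 rose by 2.42, 2.38, 1.66, 1.47, 1.20 and 0.36. With each library left out in turn 18 of the 27 calls held, among the lower ones Gbp2, Gbp5 and Irgm1. Without WT number 4 at 24 h, the log2 fold change was −0.49 for Iigp1, −0.22 for Irf1, −0.33 for Gbp4, −0.29 for Ifi35 and −0.37 for Igtp, none of which passed, and Tap1 (0.22 without WT number 1 at 24 h) and Ifit3 lost their calls too. In a fit of only the 2 groups compared, 17 of the 45 passed in place of 27, 14 higher and 3 lower.

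**Figure D1:**
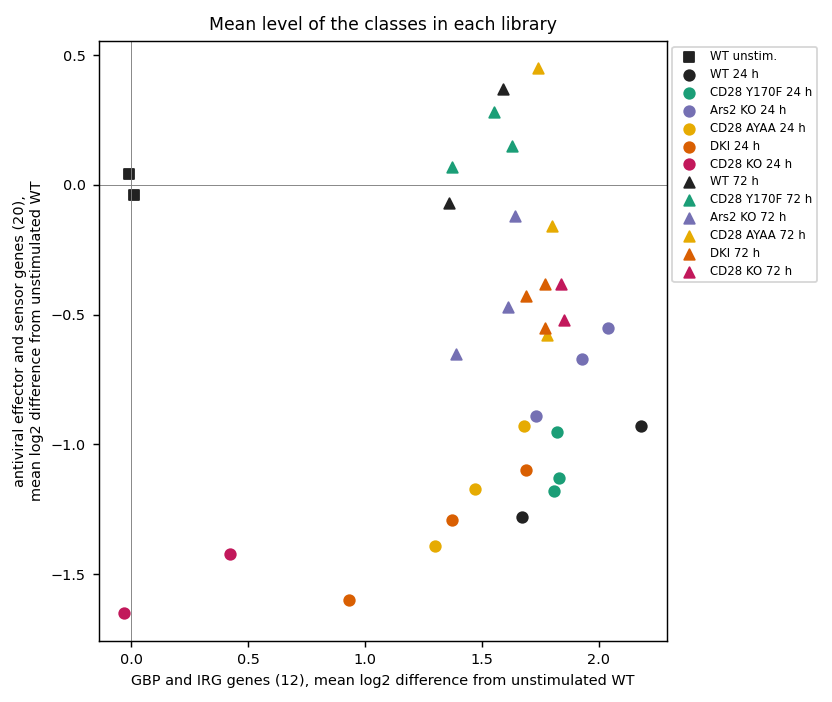
Each point is 1 of the 34 libraries, placed by the mean log2 difference (CPM plus 1) from unstimulated WT of the 12 GBP and IRG genes (horizontal axis) and of the 20 antiviral effector and sensor genes (vertical axis); colours are genotypes, squares unstimulated, circles 24 h and triangles 72 h. WT lies at 1.67 and 2.18 across and −1.28 and −0.93 up at 24 h, and at 1.36 and 1.59 across and −0.07 and 0.37 up at 72 h; the 2 libraries labelled CD28 KO at 24 h lie at the lower left, at −0.03 and 0.42 across.

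At 24 h Gbp2 and Igtp differed between the genotypes in a similar order. Gbp2 was at 1072 and 1748 CPM in WT and at 1081, 1175 and 1148 CPM in Ars2 KO. It was at 927, 1060 and 1006 CPM in CD28 Y170F, 457, 546 and 627 CPM in CD28 AYAA, 424, 275 and 561 CPM in DKI, and 83.9 and 120 CPM in the libraries labelled CD28 KO. Ars2 KO overlapped WT and CD28 AYAA overlapped DKI, whereas each AYAA and DKI library lay below every WT, Ars2 KO and Y170F library and above both of those labelled CD28 KO. Igtp had the same order of group means apart from Ars2 KO and WT, with 711, 697 and 729 CPM in Ars2 KO, 640 and 768 in WT, 678, 713 and 652 in Y170F, 477, 534 and 586 in AYAA, 449, 366 and 539 in DKI and 168 and 240 in the libraries labelled CD28 KO. Other GBP and IRG genes had other orders: the highest 24 h group mean was that of DKI for Irgm2 (242 CPM, against 209 CPM in WT) and Gbp9 (249 against 205 CPM), and Gbp7 had means of 210.0 CPM in DKI, 205 in Y170F and 197 in AYAA. Comparisons with WT share its 2 libraries, so they are not independent of each other.

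The libraries labelled CD28 KO at 24 h had the lowest group mean of all 13 groups in 21 of the 45 members, a count not made over all genes. Against WT at 24 h, 25 members were lower there and 1 higher, where 24.7% of all genes were lower and 18.6% higher (edgeR, Benjamini-Hochberg). The 25 held 10 of the 12 GBP and IRG genes (median log2 fold change −1.43), 7 of the 20 antiviral genes and sensors (median −0.68), 4 of the 5 antigen presentation genes, 3 of the set with Parp9 and, of the factors, Irf1. Against WT number 1 alone, whose depth matches, 18 were lower and 2 higher, and 17 of the 26 calls held with every library left out in turn.

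Gbp2 fell by 3.79 on the log2 scale (SE 0.26, edgeR adjusted p = 2.9e-10). Gbp5 was at 37.4 and 47.4 CPM in the libraries labelled CD28 KO against 322 and 404 CPM in WT (log2 fold change −3.1, SE 0.21, adjusted p = 2.9e-10). Iigp1 was at 22.0 and 33.0 CPM against 272 and 444 CPM (log2 fold change −3.70, SE 0.34, adjusted p = 1.4e-08). None of these libraries came near WT, and the Iigp1 values lay below the 35.2 and 33.2 CPM of unstimulated cells. Igtp fell by 1.79 (SE 0.15, adjusted p = 5e-09) and Gbp4 by 1.09, from 671 and 912 CPM in WT to 321 and 421 CPM. Irf1 fell by 0.96 (186 and 203 CPM against 309 and 448 CPM) and Zbp1 by 1.24 (56.8 and 65.9 CPM against 118 and 173 CPM). The class I genes fell less, B2m by 0.48 (793 and 928 CPM against 1126 and 1272 CPM), Tap1 by 0.52 (227 and 253 CPM) and Nlrc5 by 0.33 (375 and 389 CPM). Ifit3 fell by 1.09 (6.56 and 8.23 CPM) and Oasl2 by 1.16 (3.11 and 5.24 CPM). Without WT number 4, Oasl2 was at −0.50, Nlrc5 at −0.16, Tap1 at −0.32 and Ifit3 at −0.82, and none of these 4 passed. Ddx58 was the member that rose, from 44.1 and 52.5 CPM to 85.5 and 99.1 CPM, by 0.94 (SE 0.23, adjusted p = 0.0018). Isg15 (0.633 and 0.783 CPM), Usp18 (8.86 and 10.6 CPM) and Irf7 (19.4 and 21.5 CPM) did not pass. The B cell markers summed to 329 to 433 CPM here against 203 to 320 CPM in WT, and their part in these differences was not tested. The 9 dendritic and plasmacytoid cell markers summed to 75.0 to 78.2 CPM, against 30.7 to 43.4 CPM in WT. Ccr9 (48.5 and 54.6 CPM against 14.6 and 22.4 CPM), Zbtb46 (13.7 and 14.2 against 8.03 and 11.6), Tcf4 (10.1 and 7.98 against 6.02 and 5.81) and Xcr1 (0.92 and 0.686 against 0.504 and 0.0922) were higher. Itgax was lower (1.04 and 0.49 CPM against 1.33 and 2.58 CPM) and Flt3 overlapped WT. Clec9a and Siglech were at 0.461 CPM or less in all 4 libraries.

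DKI libraries differed from WT in fewer members. At 24 h 9 were lower and 1 higher, against 15.8% and 10.3% of all genes. The 9 were Gbp2, Gbp5, Gbp3, Gbp6, Igtp, Irgm1, Iigp1, Bst2, which tethers budding virus to the cell, and Ifi35, and Ddx58 was the 1 higher. Gbp2 fell by 1.75 (SE 0.21, edgeR adjusted p = 1.7e-06) and Gbp5, at 126, 91.1 and 157 CPM, by 1.54 (SE 0.18, adjusted p = 8e-07). Iigp1, at 127, 72.2 and 192 CPM, fell by 1.46, Bst2 by 0.77, Igtp by 0.64, Irgm1 by 0.63, Gbp3 by 0.58 and Ifi35 by 0.33, and Ddx58 rose by 0.60. In DKI these genes lay on 1 side of WT in every library, except Gbp6 (log2 fold change −0.57), whose groups overlapped. Against WT number 4 alone, which has the depth of the DKI libraries, 8 members were lower and none higher. Without WT number 4, or without DKI number 2, 5 passed, and without WT number 4 Gbp3, Gbp6, Irgm1 and Ifi35 were at −0.37, −0.29, −0.39 and −0.13. Gbp2, Gbp5, Iigp1, Igtp and Bst2 passed with each library left out.

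DKI and the libraries labelled CD28 KO were compared directly. At 24 h 21 members were higher in DKI and none lower, where 6.30% of all genes were higher and 2.76% lower, and 11 of the 12 GBP and IRG genes were among them (median log2 fold change 0.91). Iigp1 was higher by 2.24, Gbp2 by 2.04 (SE 0.23, edgeR adjusted p = 4.2e-06), Gbp5 by 1.56, Gbp6 by 1.45, Igtp by 1.15, Gbp4 by 0.92, Zbp1 by 0.84, Irf1 by 0.59, Nlrc5 by 0.41 and Tap1 by 0.38. The lowest DKI value of Gbp2, 275 CPM, was above the highest of the libraries labelled CD28 KO, 120 CPM. The count was 5 without CD28 KO number 1, 13 without CD28 KO number 2 and 11 without DKI number 3, and Gbp2, Iigp1, Igtp, Gbp6 and Gbp5 passed in each of these. No depth group holds libraries of both genotypes, and 5 members passed in a fit with a term for depth under 12 M.

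The 2 point mutants of CD28 differed from each other. CD28 AYAA had 3 members lower than WT at 24 h and none higher, where 2.00% of all genes were lower and 1.61% higher: Gbp2 (log2 fold change −1.38, SE 0.21, edgeR adjusted p = 0.00058), Gbp5 (160, 169 and 188 CPM, log2 fold change −1.07, adjusted p = 0.0013, SE 0.18) and Bst2 (12.8, 14 and 15 CPM against 19.8 and 24.5 CPM, log2 fold change −0.66, SE 0.17, adjusted p = 0.035). The AYAA and WT libraries of these genes did not overlap, and Gbp2 and Gbp5 passed with each library left out. Igtp (log2 fold change −0.40, adjusted p = 0.078) and Iigp1 (154, 158 and 245 CPM, log2 fold change −0.95, adjusted p = 0.052) did not pass. DESeq2 called 6 members and edgeR with no filter on low counts 6.

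In CD28 Y170F no member passed at 24 h by edgeR, DESeq2 or limma-voom, where 0.0547% of all genes did, and 1, Gbp2 (log2 fold change −0.50), was under an unadjusted p of 0.05. Gbp5 was at 361, 416 and 324 CPM there, within and above the WT libraries. Set against Y170F directly, AYAA had Gbp5 lower by 1.09 on the log2 scale (SE 0.16, edgeR adjusted p = 0.00021) and Gbp2 lower by 0.88 (SE 0.19, adjusted p = 0.011), with 2.18% of all genes lower and 2.17% higher. Every AYAA library of both genes lay below every Y170F library. Without AYAA number 1 or number 2 only Gbp5 passed, and 8 members passed in a fit of these 2 groups alone, 7 lower and 1 higher.

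In Ars2 KO no member passed at 24 h by edgeR, DESeq2 or limma-voom, where 0.399% of all genes passed. Under an unadjusted p of 0.05 there were 8 of the 45 members (17.8%, against 10.4% of all genes), all of them antiviral genes or sensors with higher estimates: Xaf1, Ddx58, Ifit3, Oas2, Isg15, Isg20, Rtp4 and Oas3. Ifit3 was at 29.9, 31.0 and 25.1 CPM against 13.1 and 18.8 CPM in WT, and Isg15 at 2.86, 2.22 and 2.31 CPM against 1.15 and 1.47 CPM, with adjusted p of 0.34 and 0.38. Their groups did not overlap. Myeloid markers summed to 16.7 to 39.1 CPM in Ars2 KO and 7.1 to 12 CPM in WT, and their part was not tested. One member passed without Ars2 KO number 3.

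**Figure D2:**
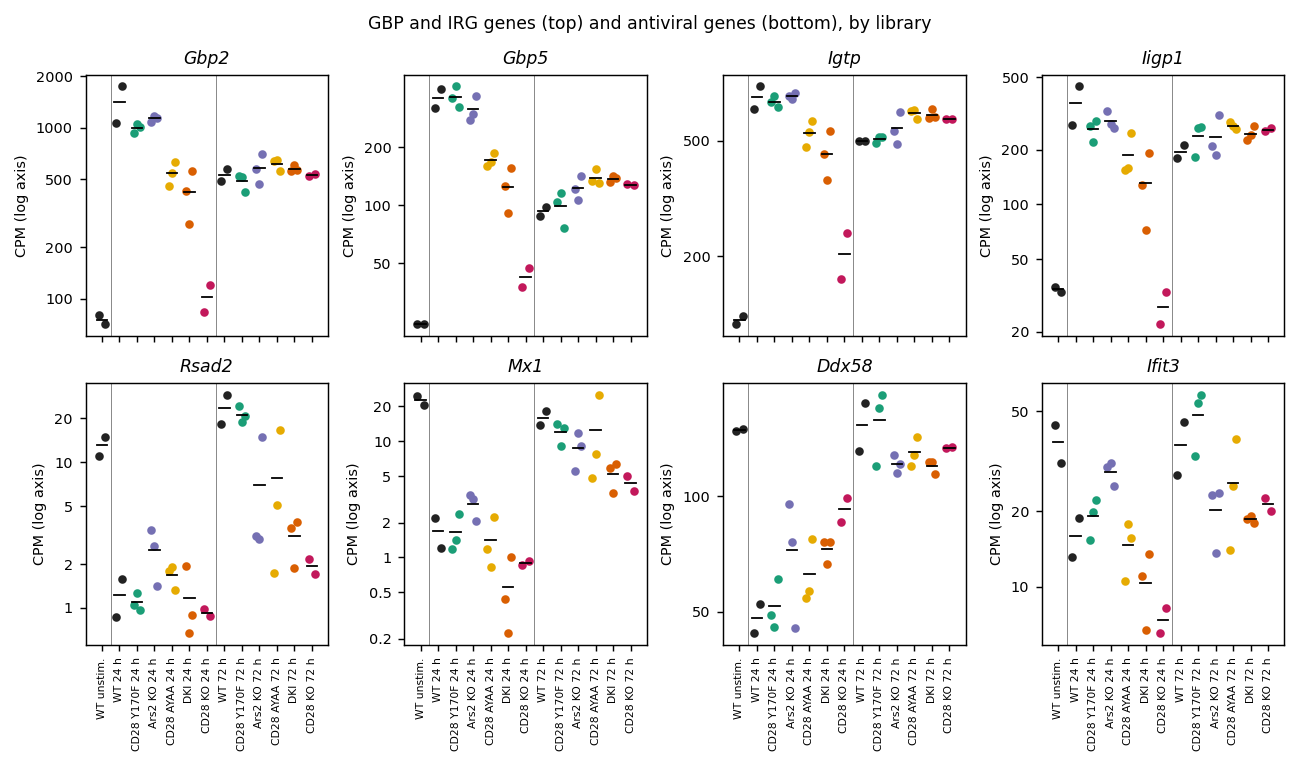
CPM of 4 GBP and IRG genes (top) and 4 antiviral genes or sensors (bottom) in each library on a log axis, by group; points are libraries and bars group means, and vertical lines part unstimulated, 24 h and 72 h. Gbp2, Gbp5, Igtp and Iigp1 are lowest among the stimulated groups in the libraries labelled CD28 KO at 24 h, and at 72 h the groups lie close together for Gbp2 (423 to 698 CPM), while Rsad2 spans 1.72 to 28.9 CPM at 72 h.

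The pathway upstream of the members was read from a list of 93 further interferon genes, of which 80 were tested. Ifng, the gene of interferon gamma, was at 3.78 and 4.19 CPM in unstimulated WT, 51.6 and 53.7 CPM in WT at 24 h and 1.33 and 3.23 CPM in WT at 72 h. It rose to 24 h (log2 fold change 3.72, SE 0.72, edgeR adjusted p = 0.00013) and fell from 24 h to 72 h (−4.68, SE 0.82, adjusted p = 9.6e-05). The type I interferon genes Ifnb1, Ifna1, Ifna2, Ifna4 and Ifna5 did not pass the filter on low counts and were not tested. Ifnk, also a type I interferon gene, passed the filter and lay at 0.0925 to 1.06 CPM over all libraries. At 24 h Ifng was at 0.518 and 0.783 CPM in the libraries labelled CD28 KO, 2.03, 1.01 and 2.78 CPM in DKI and 2.66, 2.79 and 5.63 CPM in CD28 AYAA. It was at 18, 13.6 and 23.1 CPM in Y170F and 17.9, 54.4 and 16.3 CPM in Ars2 KO. The first 3 groups lay below all WT libraries and passed, with log2 fold changes of −6.31 (adjusted p = 6.3e-06), −4.75 (adjusted p = 4.3e-05) and −3.83 (adjusted p = 0.0014). Y170F (−1.53, adjusted p = 1.0) and Ars2 KO (−0.83, adjusted p = 0.67) did not pass, though all Y170F libraries lay below WT, and AYAA was below Y170F by 2.30 (adjusted p = 0.028).

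Socs1, an induced inhibitor of cytokine signalling, was at 13.9 and 12.5 CPM in unstimulated WT and 51.2 and 65.7 CPM in WT at 24 h. At 24 h it was at 22.3 and 28.1 CPM in the libraries labelled CD28 KO (log2 fold change −1.21, edgeR adjusted p = 2.3e-05), 39.5, 31.8 and 45.6 CPM in DKI (−0.58, adjusted p = 0.017) and 36.6, 39.6 and 46.9 CPM in AYAA (adjusted p = 0.093). Y170F (56.0, 50.5 and 54.6 CPM) and Ars2 KO (68.6, 69.6 and 53.2 CPM) overlapped WT. Of the 80 pathway genes tested, 12 were higher and 30 lower than WT in the libraries labelled CD28 KO at 24 h (15.0% and 37.5%, against 18.6% and 24.7% of all genes). In DKI 10 and 19 were (12.5% and 23.8%, against 10.3% and 15.8%), and in AYAA 2 and 6 (2.5% and 7.5%, against 1.61% and 2.00%).

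**Figure D3:**
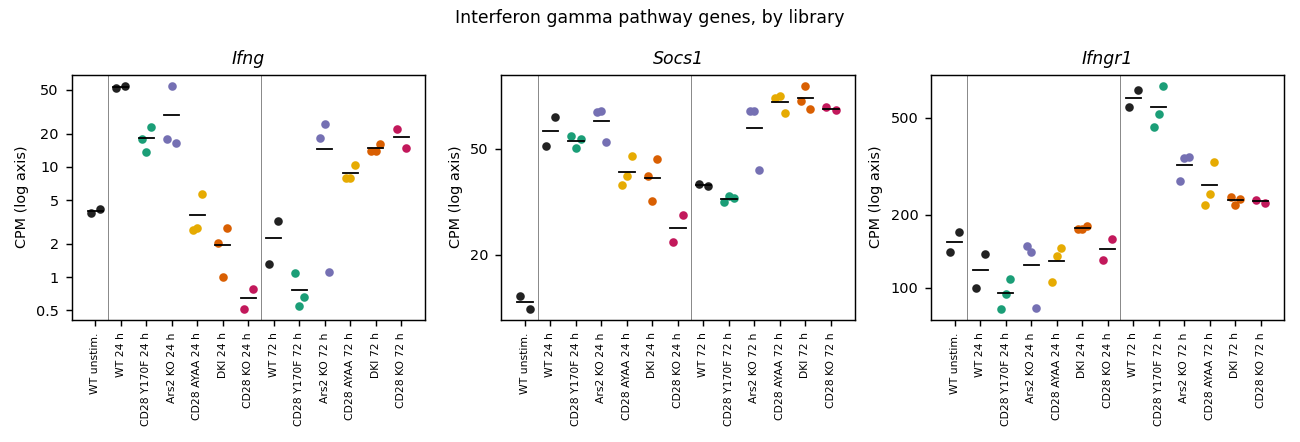
CPM of Ifng, Socs1 and the receptor gene Ifngr1 in each library on a log axis, by group; points are libraries and bars group means. Ifng is highest in WT at 24 h with 1 Ars2 KO library, at 51.6 to 54.4 CPM, and at 72 h it is 7.91 to 24.2 CPM in the libraries labelled CD28 KO, DKI and AYAA and in 2 of 3 Ars2 KO libraries, against 0.549 to 3.23 CPM in WT and Y170F.

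At 72 h Gbp2, Igtp and Iigp1 did not pass against WT in any genotype. Gbp2 was at 485 and 574 CPM in WT, 522 and 533 in the libraries labelled CD28 KO, 556, 605 and 563 in DKI, 640, 648 and 560 in AYAA, 521, 514 and 423 in Y170F and 572, 468 and 698 in Ars2 KO. Igtp was at 497 and 499 CPM in WT and between 488 and 643 CPM in the other genotypes, and Iigp1 at 179 and 211 CPM and between 183 and 308 CPM. Each genotype overlapped WT for Gbp2. For Igtp and Iigp1, Y170F and Ars2 KO overlapped WT. Every library labelled CD28 KO, DKI or AYAA lay above both WT libraries for these genes, at 592 to 643 CPM for Igtp and 226 to 285 CPM for Iigp1. The calls at this time lay in other members.

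The libraries labelled CD28 KO had 3 members higher and 6 lower than WT at 72 h, against 8.57% and 11.5% of all genes. The 6 were antiviral genes or sensors. Rsad2 was at 2.16 and 1.72 CPM against 18.2 and 28.9 CPM (log2 fold change −3.59, SE 0.73, edgeR adjusted p = 0.001) and Mx1 at 5.03 and 3.73 CPM against 13.7 and 18.1 CPM (−1.84, SE 0.53, adjusted p = 0.014). Ifit1 fell by 1.49, Dhx58, a regulator of RNA sensing, by 1.41, Oas3 by 1.06 and Ifit2 by 0.76. Gbp4, at 1111 and 1162 CPM against 524 and 547 CPM, rose by 1.09 (SE 0.18, adjusted p = 0.00012), Gbp8 by 0.92 and Irgm1 by 0.63. No library overlapped WT for these 9. Rsad2, Oas3, Ifit2 and Gbp4 passed with each library left out, 4 members passed without the second library labelled CD28 KO, and against WT number 1 alone 4 were lower and 3 higher.

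DKI had 5 members higher and 13 lower than WT at 72 h, against 10.3% and 13.1% of all genes. The lower ones held 8 antiviral genes or sensors, Irf7, Parp9, Trim30a, Tap1 and Tap2. Rsad2 was at 3.55, 1.88 and 3.89 CPM (log2 fold change −2.91, SE 0.64, edgeR adjusted p = 0.0016) and Ifit2 at 57.6, 55.6 and 58.1 CPM against 96.0 and 98.7 CPM (−0.77, SE 0.15, adjusted p = 0.00048). Every DKI library lay below WT for both. Mx1 fell by 1.58, Ifit1 by 1.39, Dhx58 by 1.34, Ifit3 by 0.96 (18.7, 19.2 and 18 CPM against 27.9 and 45.4 CPM), Irf7 by 0.94 (31.4, 33.0 and 31.8 CPM against 47.4 and 76.7 CPM) and Tap1 by 0.32 (361, 364 and 334 CPM against 413 and 469 CPM). Isg20, at 12.3, 16.2 and 17.6 CPM against 7.83 and 6.78 CPM, rose by 1.06, Gbp4 by 0.63, Gbp5 by 0.56, Irgm1 by 0.53 and Ifi35 by 0.43. Against WT number 4 alone, which matches the depth, 13 were lower and 2 higher, and without it 3 were lower and 3 higher, with Irf7 at −0.57 and Ifit3 at −0.58. Dhx58, Rsad2, Isg20, Ifit2 and Gbp4 passed with each library left out.

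DKI against the libraries labelled CD28 KO gave no member at 72 h by edgeR, DESeq2 or limma-voom, with 0.454% of all genes called. There were 4 at an unadjusted p under 0.05 (Isg20, Gbp4, Oasl2 and Gbp8), and 7 passed in a fit of these 2 groups alone, 6 lower and 1 higher. Oasl2, for example, was at 9.93, 11.6 and 14.4 CPM in DKI and 21.1 and 28.2 CPM in the libraries labelled CD28 KO.

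CD28 AYAA had 4 members higher and 1 lower than WT at 72 h, against 10.4% and 11.3% of all genes. Isg20, at 16.9, 22.1 and 22.5 CPM against 7.83 and 6.78 CPM, rose by 1.48 (SE 0.22, edgeR adjusted p = 4.6e-05), Gbp4 by 0.65, Gbp5 by 0.58 and Ifi35 by 0.53, and Dhx58 fell by 0.82. The antiviral genes were spread among the AYAA libraries. Rsad2 was at 1.74, 5.09 and 16.6 CPM, Mx1 at 4.84, 7.71 and 25 CPM and Isg15 at 3.70, 6.91 and 12.4 CPM in numbers 1, 2 and 3, so that number 3 was the highest for each. Without number 3, 12 members passed, 4 higher and 8 lower. Without number 2 there were 3, and without WT number 4 there were 2. Ifi35 and Isg20 passed with each library left out. A fit with a term for sex gave 4 higher and 5 lower.

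In CD28 Y170F no member passed at 72 h by edgeR, DESeq2 or limma-voom, none was under an unadjusted p of 0.05, and 0.0273% of all genes were called. Rsad2 was at 24.3, 18.8 and 20.7 CPM and Ifit3 at 33.2, 54.0 and 57.9 CPM, both overlapping WT. The direct comparison of AYAA with Y170F had 7 members higher and 11 lower at 72 h, where 17.6% of all genes were higher and 19.2% lower. Isg20 was higher by 1.38 (SE 0.19, edgeR adjusted p = 4.3e-06), Gbp4 by 0.60, Gbp7 by 0.57, Gbp5 by 0.50 and Ifi35 by 0.45. Rsad2 was lower by 1.44, Ifit3 by 0.90, Ifih1, the gene of the RNA sensor MDA5, by 0.87, Irf7 by 0.65, Trim30a by 0.51, Ifit2 by 0.48 and Tap1 by 0.34. Groups overlapped for Ifit3, Irf7 and Trim30a of these. Fewer members passed without AYAA number 1 (11), AYAA number 2 (10), Y170F number 2 (8) or Y170F number 3 (9), and Ifi35, Ifih1, Trim30a, Isg20, Ifit2 and Gbp4 passed in each. Without AYAA number 3, Rsad2 was at −2.62.

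Ars2 KO had 8 members lower and 1, Ifi35, higher than WT at 72 h, against 6.27% and 6.60% of all genes. Trim30a, at 101, 91.7 and 119 CPM against 168 and 209 CPM, fell by 0.86 (SE 0.14, edgeR adjusted p = 0.00032). Rsad2 was at 3.1, 2.98 and 14.8 CPM (log2 fold change −1.75, SE 0.58, adjusted p = 0.045), whereas Irf7 was at 30.5, 23.8 and 36.3 CPM (−1.03, adjusted p = 0.0052). All 3 lay below WT in each library. Ifit1 fell by 1.09, Dhx58 by 1.01, Oas3 by 0.80, Ifit2 by 0.49 and Parp9 by 0.48, and Ifi35 rose by 0.34. Number 3 stood apart from the other Ars2 KO libraries at this time, with Rsad2 at 14.8 CPM and Ifng at 1.11 CPM against 18.1 and 24.2 CPM. Without it, 16 members passed, 15 lower and 1 higher, with Rsad2 at −2.94 and Ifit2 at −0.74. Without number 1, 3 passed, without number 2, 4 (Ifit2 was at −0.31), and without WT number 4, 1 (Irf7 was at −0.65). Trim30a alone passed with each library left out, and a fit of the 2 groups alone called none.

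The difference of Ifng from WT moved upward between 24 h and 72 h, by 9.47 on the log2 scale in the libraries labelled CD28 KO, 7.59 in DKI, 5.92 in AYAA and 3.65 in Ars2 KO (edgeR's interaction test, each past the threshold). At 72 h Ifng was higher than WT in the libraries labelled CD28 KO (22.2 and 14.7 CPM, log2 fold change 3.17, edgeR adjusted p = 0.0067), in DKI (13.9, 13.9 and 16.2 CPM, 2.84, adjusted p = 0.01) and, with overlapping groups, in Ars2 KO (2.82, adjusted p = 0.017). AYAA, at 7.91, 7.93 and 10.4 CPM, did not pass (2.09, adjusted p = 0.055), and Y170F was at 1.10, 0.549 and 0.662 CPM. Socs1 was at 36.8 and 36.1 CPM in WT and 31.5 to 33.2 CPM in Y170F. It rose by 1.09 in DKI (75.9, 86.5 and 70.4 CPM), 1.04 in AYAA (77.6, 79.3 and 68.4 CPM), 0.96 in the libraries labelled CD28 KO (71.7 and 70.0 CPM) and 0.72 in Ars2 KO (69.3, 69.4 and 41.5 CPM). Ifngr1, which encodes the ligand-binding receptor chain, was at 552 and 652 CPM in WT and fell by 1.41, 1.40, 1.19 and 0.91 in the libraries labelled CD28 KO, DKI, AYAA and Ars2 KO. Of the 80 pathway genes, 6 were higher and 16 lower than WT in the libraries labelled CD28 KO (7.5% and 20%, against 8.57% and 11.5% of all genes) and 8 and 21 in DKI (10.0% and 26.2%, against 10.3% and 13.1%). In AYAA 10 and 18 were (12.5% and 22.5%, against 10.4% and 11.3%), and in Ars2 KO 5 and 14 (6.25% and 17.5%, against 6.60% and 6.27%).

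Summed markers of other cell types differed between genotypes at 72 h as well. B cell markers summed to 645 to 681 CPM in WT and 829 to 998 CPM in Y170F, but to 198 to 235 CPM in the libraries labelled CD28 KO, 187 to 209 CPM in DKI, 238 to 249 CPM in AYAA and 178 to 540 CPM in Ars2 KO, with none of the 12 at 0. Ighm made up most of these B cell sums, at 654 and 618 CPM in WT. The 7 NK cell markers, several shared with activated CD8 T cells, summed to 108 to 161 CPM in WT and 86.4 to 181 CPM in Y170F. In the same 4 genotypes they summed to 412 to 475, 320.0 to 356, 310.0 to 485 and 195 to 466 CPM, none at 0. Eomes and Gzma made up most of these NK sums, at 312 and 391 CPM and 79.6 and 56.6 CPM in the libraries labelled CD28 KO. Ncr1, Klra8 and Klra4 were at 2.13 CPM or less there, while Klrb1c was at 13.9 and 15.6 CPM against 1.2 and 0.522 CPM in WT. The calls of lower antiviral genes at 72 h fell in these 4 genotypes, and the part of such cells in them was not tested.

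**Figure D4:**
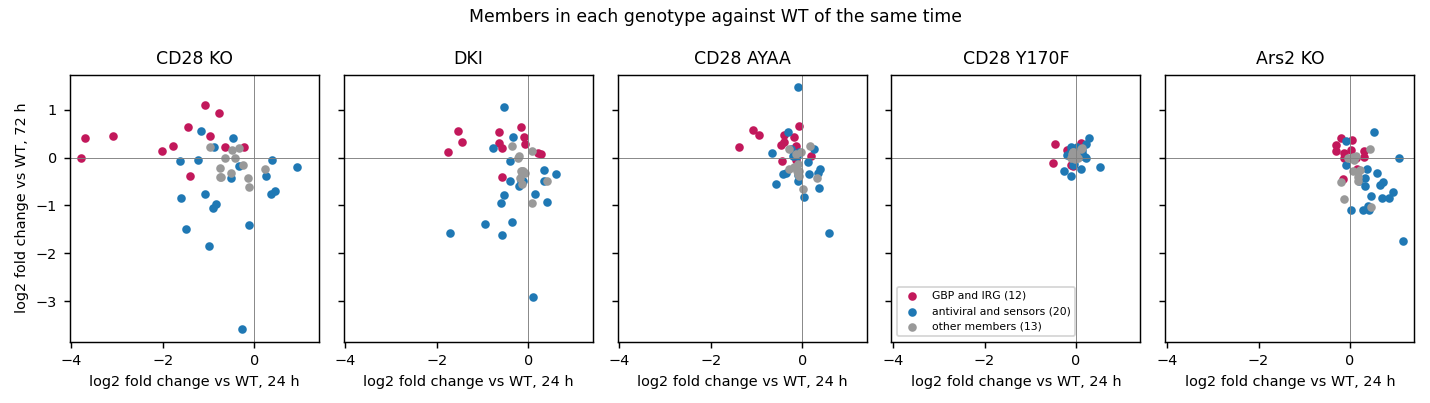
Log2 fold change of each of the 45 members against WT of the same time, at 24 h (horizontal axis) and 72 h (vertical axis), 1 panel per genotype; colours mark GBP and IRG genes, antiviral genes and sensors, and other members. Gbp2 lies at −3.79 and −0.01 in the libraries labelled CD28 KO, at −1.75 and 0.12 in DKI and at −1.38 and 0.22 in AYAA, while the members of Y170F lie between −0.50 and 0.52 at 24 h and −0.38 and 0.41 at 72 h.

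Whether a genotype's difference from WT changed between the 2 times was tested as an interaction. In the libraries labelled CD28 KO, the log2 difference from WT moved upward from 24 h to 72 h in 18 members and downward in 5, where 35.3% of all genes changed in either direction. All 10 GBP and IRG genes called moved up, with Iigp1 at 4.10 (SE 0.45, edgeR adjusted p = 5.9e-07), Gbp2 at 3.78 and Gbp5 at 3.55, and Rsad2 moved down by 3.31. In DKI 11 moved up and 7 down (32.5% of all genes in either direction), with Gbp5 at 2.10, Gbp2 at 1.87 and Rsad2 at −3.02. In AYAA 10 moved up and 1, Ifih1, down (24.4%), with Gbp5 at 1.66 and Gbp2 at 1.59, and 7 passed without WT number 4 of either time. With each library left out in turn, 17 of the 23, 9 of the 18 and 5 of the 11 calls in these 3 genotypes held, and neither call of Rsad2 nor that of Ifih1 in AYAA was among them. In Ars2 KO 5 members moved down (3.68%), Ifit3 by 1.71, Irf7 by 1.49, Oas3 and Xaf1 each by 1.25 and Trim30a by 0.72. None of these 5 held with every library left out: without the Ars2 KO 24 h libraries number 1, 2 and 3 the counts were 0, 1 and 10, without those of 72 h 1, 1 and 13, without WT number 1 at 24 h 2 and at 72 h 8, and without WT number 4 at 72 h 0. In Y170F no member moved by edgeR, DESeq2 or limma-voom or at an unadjusted p under 0.05, and 0.00% of all genes did.

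The other members are given by the range of their group means. Gbp9 had group means of 161 to 249 CPM over all 13 groups, B2m 861 to 1398 CPM, Tap2 120 to 212 CPM and Irf9 74.2 to 137 CPM. The means of Stat2 ran from 42.8 to 106 CPM, of Nlrc5 from 318 to 551 CPM, of Xaf1 from 17.6 to 48.5 CPM, of Rtp4 from 8.35 to 39.0 CPM and of Usp18 from 9.72 to 24.0 CPM. Ifi44 was low throughout, with group means of 0.262 to 3.17 CPM, the highest in unstimulated WT. The highest group mean of the 13 was that of Y170F at 72 h in 12 members, among them Ifit1, Ifit2, Ifit3, Ddx58 and Tap1. Unstimulated WT had the lowest mean in 13 members, 7 of them GBP or IRG genes. Neither count was made over all genes.

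**Figure D5:**
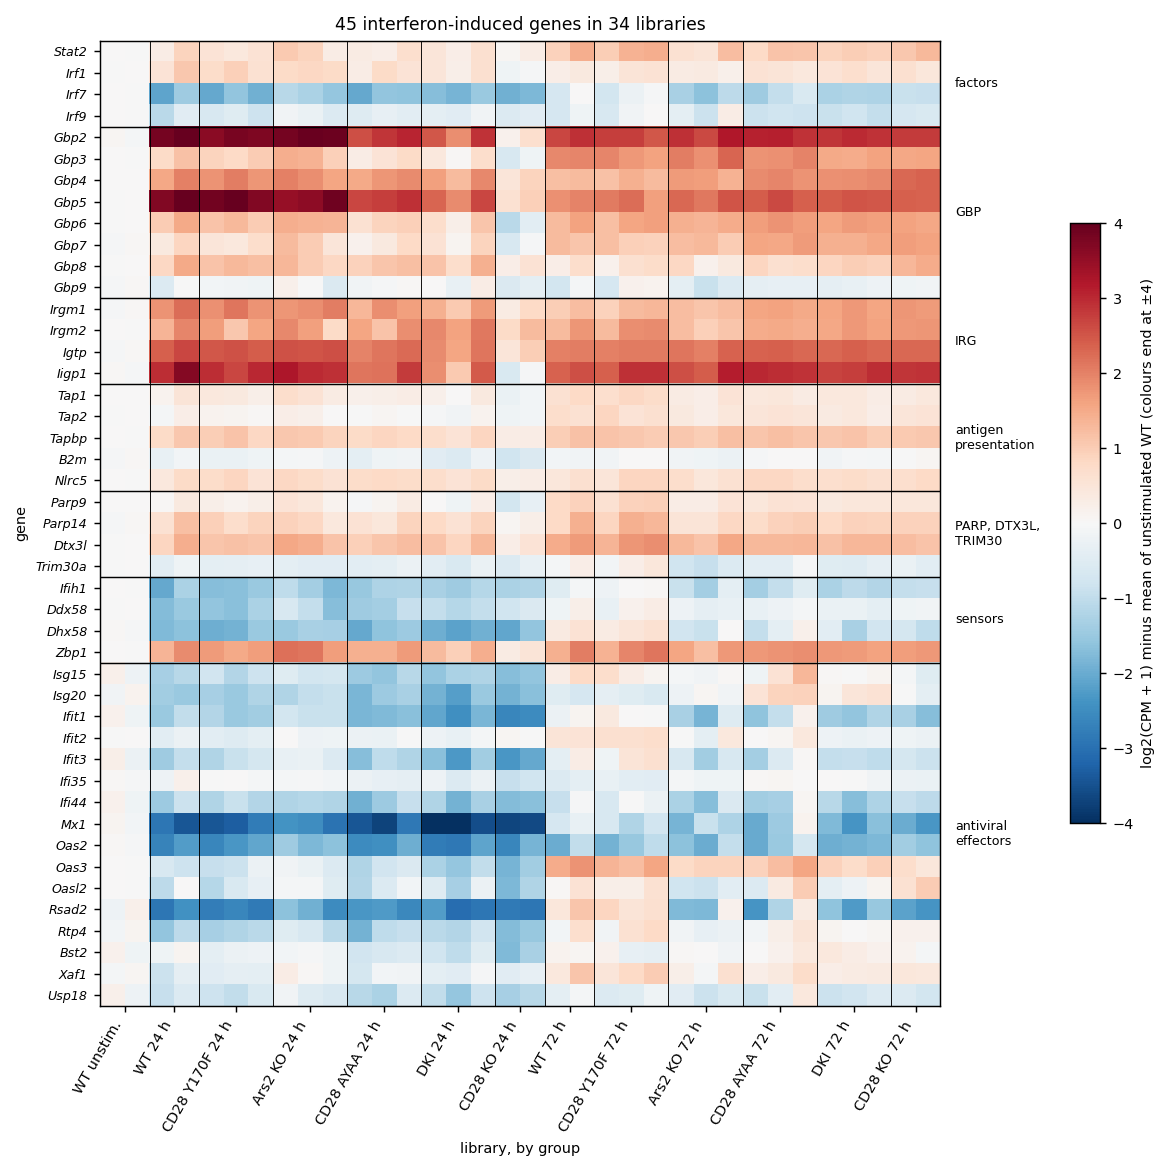
Log2(CPM plus 1) of the 45 members (rows, by class) minus the mean of unstimulated WT, in the 34 libraries (columns, by group); colours end at ±4. Most GBP and IRG rows are above the unstimulated level after stimulation, least so in the libraries labelled CD28 KO at 24 h, where Gbp2 averages 102 CPM against 75.2 CPM in unstimulated WT, and the Mx1 and Rsad2 rows are below it in all groups at 24 h.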

How the data were processed

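The authors deposited 1 table of expected counts per gene, unnormalized estimates from RSEM; the submitters' processing notes also name bcl2fastq 2.20, FastQC, STAR and limma, and the builds mm10 and GRCm38. Per the labels' protocols, ribosomal RNA was depleted and strand marked with dUTP before paired-end sequencing. The notes do not say how strand or reads shared between similar genes were handled. Gene IDs were matched to GENCODE M21 symbols, 48058 of 48526 (99.0%). Expected counts were rounded, and 83.7% to 90.8% of values per library were whole before that. All 34 libraries entered 1 fit with a mean per group (edgeR 4.0.16 in R 4.3.3, TMM scaling, filterByExpr, quasi-likelihood F test), with Benjamini-Hochberg adjustment over the 18292 genes tested and a threshold of 0.05. TMM factors ran from 0.826 to 1.11, and the common biological coefficient of variation was 0.163. CPM are counts scaled to a TMM-adjusted library total of 1000000, not per gene length, so levels of different genes are not compared. The method was tested on simulated data. Alternatives were DESeq2 1.42.0, limma-voom (limma 3.58.1), DESeq2's size factors, no filter, the compared groups alone, terms for depth or sex, the replicate number as a block, and each library left out. Same-numbered CD28 AYAA and Y170F libraries at 24 h deviated together (correlations 0.36, 0.37 and 0.65 over 9267 genes), so the numbers pair these groups. Other groups' numbers did not meet the rule (every correlation of 3 pairs over 0.1) except AYAA across its 2 times (0.41, 0.16 and 0.55). WT across its 2 times had only 2 pairs, at 0.55 each, so the rule could not apply, and its number 4 was under 12 M at both times. The main fit held no pairing. The 2 CD28 KO columns at 72 h carry other numbers than the sample titles and were assigned to their group only. The members and gene lists were chosen with earlier results of these data known. By a rule, every library's value is given for 14 chosen members, Ifng and Socs1 (1 further gene of the rule is not reported here), and each comparison names the called members with the smallest p and the largest fold changes, or all where 12 or fewer passed; further names were chosen after their values were seen.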

Additional observations from a re-analysis of the deposited data

Results flagged for a closer look

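Each result here was picked out because a genotype's log2 difference from WT at 72 h differed from that at 24 h by edgeR's interaction test; values are the 72 h difference minus the 24 h difference, so positive values moved upward. These values share the WT libraries of both times. In the libraries labelled CD28 KO 40.0% of the members moved up and 11.1% down, against 20.5% and 14.7% of all genes. In DKI these shares were 24.4% and 15.6%, against 17.7% and 14.7%. They were 22.2% and 2.22% in AYAA, against 12.3% and 12.1%, and 0.00% and 11.1% in Ars2 KO, against 1.91% and 1.77%.

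In the libraries labelled CD28 KO the GBP and IRG genes moved up: Iigp1 by 4.10, Gbp2 by 3.78, Gbp5 by 3.55, Gbp4 by 2.18 and Igtp by 2.04. Oasl2 moved up by 1.71, Irf1 and Zbp1 by 1.18 each, B2m by 0.62 and Nlrc5 by 0.52. Rsad2 (−3.31), Dhx58 (−1.30), Ifih1 (−1.14), Ddx58 (−1.13) and Ifit2 (−1.11) moved down.

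In DKI, Gbp5 (2.10), Gbp2 (1.87), Iigp1 (1.79), Igtp (0.94), Gbp4 (0.80), Ifi35 (0.76) and Irf1 (0.60) moved up. Rsad2 (−3.02), Ifih1 (−1.32), Irf7 (−1.02), Ddx58 (−0.95) and Ifit2 (−0.91) moved down.

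In CD28 AYAA, Gbp5 (1.66), Gbp2 (1.59), Isg20 (1.58), Iigp1 (1.42), Irgm1 (0.87), Ifi35 (0.85), Bst2 (0.76), Gbp6 (0.73), Igtp (0.72) and Gbp4 (0.72) moved up, and Ifih1 (−1.01) moved down. In Ars2 KO, Ifit3 (−1.71), Irf7 (−1.49), Oas3 (−1.25), Xaf1 (−1.25) and Trim30a (−0.72) moved down, each losing its call with at least 1 library left out. Without WT number 4 at 24 h, Oasl2 (1.04) and Nlrc5 (0.34) in the libraries labelled CD28 KO and Irf1 (0.31) in DKI did not pass; nor did Irf7 in DKI (−0.64) without WT number 4 at 72 h, or Ifih1 in AYAA (−0.62) without WT number 1 at 24 h.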

How the results depend on the processing

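Of 3430 recomputed values of called members none changed direction, 2945 kept their call and 485 lost it; the cause was not tested. Of 584 recomputed medians of the GBP and IRG genes or the antiviral genes, 56 moved by more than the spread between libraries and 39 took the other sign, in 14 medians of at most 0.38 in size; of those given above, this touched the 0.08 of the antiviral genes in WT at 72 h against unstimulated cells (−0.12 with a depth term, −0.14 without WT number 4 at 72 h). DESeq2 called 6 members for AYAA against WT at 24 h and 8 at 72 h, 4 for AYAA against Y170F at 24 h and 15 for the Ars2 KO change between times. Without the filter on low counts these were 6 and 9 for AYAA, and 13 for Ars2 KO. With a depth term, Ars2 KO had 1 member at 24 h and 2 at 72 h, and DKI against CD28 KO 5 at 24 h. A sex term gave 9 for AYAA at 72 h. Fits of only the groups compared, with fewer samples, called 17 for WT at 72 h against 24 h, 8 and 10 for AYAA against Y170F at 24 h and 72 h, 9 for AYAA and 0 for Ars2 KO against WT at 72 h, 7 for DKI against CD28 KO at 72 h and 0 for the Ars2 KO change.

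With a replicate block, 9 members passed for DKI against CD28 KO at 24 h and 9 for the Ars2 KO change, whose libraries share only a number. It gave 30 for WT at 72 h against 24 h, 2 and 18 for AYAA against Y170F at 24 h and 72 h, 17 for the DKI change, 12 for the AYAA change and 0 for the Y170F change. The block could not be fitted for mutants against WT, which share only number 1.

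With 1 library left out, which in groups of 2 assumes that the lone library varies like the others, the counts ran from 27 to 32 for WT at 24 h and were 24 at 72 h, both against unstimulated cells, and ran from 21 to 25 between the times. At 24 h they ran from 0 to 1 for Ars2 KO, 20 to 26 for CD28 KO, 5 to 13 for DKI, 2 to 4 for AYAA, 1 to 2 for AYAA against Y170F and 5 to 22 for DKI against CD28 KO. At 72 h they ran from 1 to 16 for Ars2 KO, 4 to 9 for CD28 KO, 6 to 15 for DKI, 2 to 12 for AYAA and 8 to 18 for AYAA against Y170F. For changes between times they ran from 0 to 13 for Ars2 KO, 19 to 22 for CD28 KO, 12 to 17 for DKI and 7 to 12 for AYAA. Groups of 2 or 3 libraries, from 8.3 M counts upward, limit what differences could be detected, most for low genes such as Ifi44.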
